A study of Danio rerio with 36 samples.

Results

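The comparison described here is that of 5 day whole zebrafish larvae labelled kctd15 mutant with 5 day wild-type larvae. Each group held 3 libraries, called biological replicates in the labels, out of 36 libraries of the study. The whole study sampled both genotypes at 6 stages between the 1 somite embryo and the 14 day larva, and the 2 day and 9 day libraries are used below only to set the 5 day difference beside its neighbours. The protocols in the labels give TRIzol for RNA extraction and strand-specific libraries of polyA RNA. Both groups were raised in the same way, and no other allele or agent is given for either. The labels name neither the kctd15 allele nor the paralog that carries it, and they do not give the number of larvae in a library, their clutch, or the hour of collection. Genes entered by a filter on low counts alone: 21510 of the 30490 genes in the table were tested.

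Kctd15 encodes a small protein with a BTB domain. It is known to bind AP-2 transcription factors and to hold back their activity, and in zebrafish embryos an excess of it blocks the formation of neural crest, the source of pigment cells, craniofacial cartilage and much of the peripheral nervous system. In humans the KCTD15 locus is associated with body weight. The zebrafish larva at this age swims and can catch prey. It relies on macrophages, neutrophils and soluble innate defences such as complement, while lymphocytes are only beginning to form in the thymus. RNA of a whole larva mixes all organs, so for every gene below, fewer cells of a type and less RNA per cell cannot be told apart.

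In 5 day mutants, 28 of 37 tested genes of neutrophils and macrophages were lower. So were 19 of 31 of the interferon response and 11 of 14 of antigen presentation, against 7.84% of all genes tested. The gene lists used here and below were written with earlier results of these data known, so their shares are descriptions and not tests. A further 23 interferon and 9 antigen presentation genes had too few counts to be tested. Several inflammatory mediators and complement genes were lower too. The xenobiotic, intestine and ionocyte lists held more falls than rises. Of 45 fast muscle genes, 27 were higher, against 6.17% of all genes. Several keratins were higher, as were 10 of 26 immediate early genes (2 in the fit of all 36 libraries). Ribosomal protein genes were taken as a family after the values were seen, and 62 of 78 were higher. That count was 23 without mutant 2 and 14 with library totals as the only scaling. kctd15a RNA itself was higher in mutants.

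At 5 day, 1328 genes were higher in mutants and 1686 were lower at an adjusted p under 0.05 (edgeR quasi-likelihood test, Benjamini-Hochberg adjustment over the 21510 genes). These are 6.17% and 7.84% of the genes tested, 14% in all. A fold change of at least 2 was reached by 223 of the higher and 765 of the lower genes. The mutant and wild-type ranges did not overlap for 33.1% of genes (15.6% with all mutants above, 17.5% with all mutants below). Most genes named below were picked by call and smallest p, and the largest falls and rises also by lack of overlap. Separation of their groups follows in part from that choice and is no further evidence. With library totals as the only scaling, the counts were 569 higher and 3586 lower, and the median of all genes lay at -0.17 instead of 0.01 on the log2 scale.

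Library totals were 6802691, 7646406 and 9997469 estimated counts in mutants, and 6165297, 8033360 and 6537111 in wild type. The 50 genes with the highest counts took up 22.9 to 23.9% of a mutant library and 18.9 to 19.1% of a wild-type one. Markers of liver, pancreas, intestine, muscle, heart, lens, retina, brain, blood, pigment cells, epidermis and cartilage were detected in each library, while the germ cell markers ddx4 and nanos3 were at no more than 2.59 and 0.441 CPM, the counts scaled to the effective size of the library. Wild-type library 3 lay nearest to the mutants. On the first principal component, which held 59.9% of the variance, it was at -18.98, against -40.9 and -41.7 for the other wild-type libraries and 26.9 to 40.6 for the mutants. Without that library, 2316 genes were higher and 2407 lower. Genes named below as higher or lower kept an adjusted p under 0.05 with any 1 of the 6 libraries left out, unless the largest such p is given. Values written with ± are log2 fold changes of mutant over wild type with a standard error, with n = 3 per group. That error is the size of the log2 fold change divided by the square root of the test's F statistic. For genes near 0 counts it does not show how far a value moves with a library left out.

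**Figure D1:**
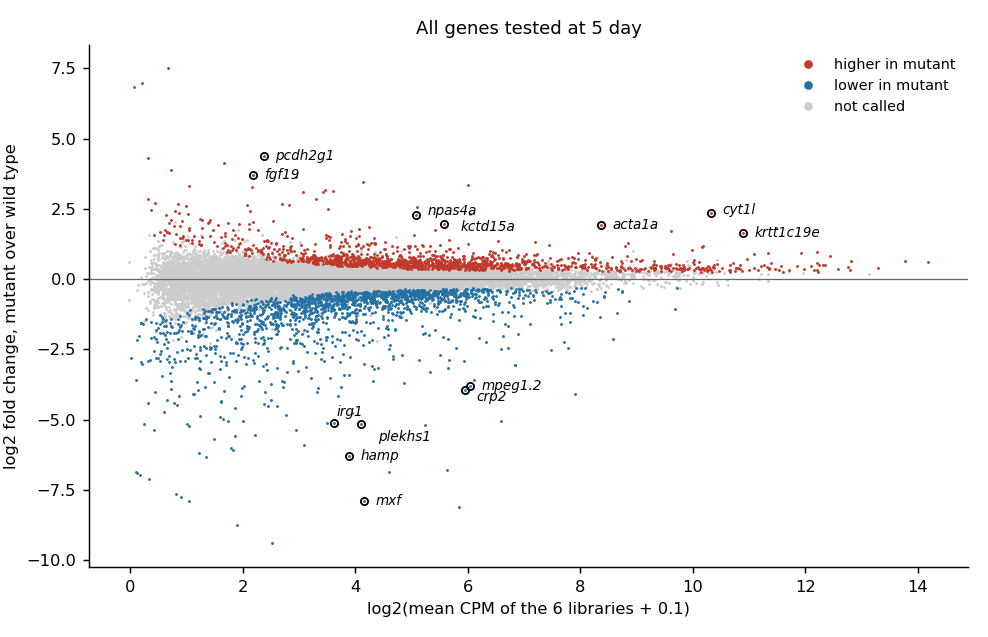
Log2 fold change of mutant over wild type (y axis) against log2 of the mean CPM of the 6 libraries plus 0.1 (x axis) for each gene tested at 5 day, 1 point per gene. Red points are the 1328 genes higher in mutants and blue points the 1686 lower ones at an adjusted p under 0.05; the lower genes reach further from 0, with 765 of them past 2-fold against 223 of the higher ones.

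RNA of kctd15a, the first of the zebrafish kctd15 paralogs, was higher in mutants. It was at 82.7, 72.7 and 71.1 CPM in mutant libraries, against 15.7, 16.6 and 26.0 CPM in wild-type libraries (log2 fold change 1.96 ± 0.17, adjusted p = 5.49e-05). The mutant and wild-type ranges were far apart. Its paralog kctd15b was at 11.001, 13.4 and 10.4 CPM in mutant libraries, against 6.40, 6.90 and 7.44 CPM in wild-type libraries (log2 fold change 0.74 ± 0.17, adjusted p = 0.0159, up to 0.081 with a library left out). In the deposited transcript table, a predicted RefSeq transcript of kctd15a held 323, 336 and 492 estimated counts in mutants, against 0.212, 83.2 and 49.9 in wild type. A curated transcript held 0.388, 0 and 0 in mutants, against 5.72, 0 and 14.9 in wild type. Only transcripts that the reference gene list gives for kctd15a were looked up, so other deposited ones may have been missed. The gene values of 534, 516 and 669 in mutants and 103, 142 and 178 in wild type are not the sum of these transcripts. RNA levels do not test the genotype labels, since a mutation need not lower the RNA of its gene.

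The AP-2 genes, whose products KCTD15 binds, showed small differences. tfap2a, a neural crest and epidermis regulator, was at 88.8, 79.9 and 72.5 CPM in mutant libraries, against 71.2, 64.2 and 86.3 CPM in wild-type libraries (0.12 ± 0.13, adjusted p = 0.566), and the groups overlapped. Values that missed the threshold were 0.39 ± 0.18 for tfap2b, -0.29 ± 0.10 for tfap2c and 0.44 ± 0.25 for tfap2e (adjusted p = 0.179, 0.0823 and 0.271); tfap2c passed without wild type 3 (-0.34, adjusted p = 0.0369). The related gene kctd1 was at 0.45 ± 0.19 (adjusted p = 0.151). tfap2d, a brain member of the family, was higher by 0.65 ± 0.19 (adjusted p = 0.0456, up to 0.153). Of 40 tested genes nearest to kctd15a in the order of the GRCz12tu gene table, 1 was higher (celsr1b, a cadherin-like receptor, 1.17 ± 0.11) and 1 lower (tnnt2d, a troponin T, -0.55 ± 0.13). Of the 40 nearest to kctd15b, 4 were lower (cyp1a, ugt5f1, pygo1 and dcun1d5). These shares of 5% and 10% lie below the 14% of all genes. The calls of the neighbours other than cyp1a were not followed with libraries left out.

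Inflammatory genes were among the largest falls. Of 32 tested inflammatory mediators, 14 were lower in mutants and 1 was higher, with a list median of -0.56 on the log2 scale. A further 17 had too few counts to be tested. With no count filter, 18 were lower and 1 higher, out of at most 49 members with values. irg1, the macrophage enzyme that makes the antibacterial metabolite itaconate, was at 0.465, 1.13 and 0.425 CPM in mutant libraries, against 28.7, 22.5 and 19.999 CPM in wild-type libraries (log2 fold change -5.14 ± 0.29, adjusted p = 2.24e-06). The groups were far apart, with no wild-type library near a mutant one. The matrix metalloproteinase gene mmp9, induced in wounds and infection, was at 6.20, 6.34 and 7.12 CPM in mutant libraries, against 34.9, 31.9 and 26.9 CPM in wild-type libraries (log2 fold change -2.24 ± 0.15, adjusted p = 9.01e-06), and mmp13a, of the same family, fell by 1.88 ± 0.28.

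cxcl18b, whose product attracts neutrophils in zebrafish, was at 0.620, 0.846 and 0.744 CPM in mutant libraries, against 5.18, 5.38 and 4.67 CPM in wild-type libraries (log2 fold change -2.75 ± 0.30, adjusted p = 0.000264). cxcl19 (-3.98 ± 0.45) and ccl20a.3 (-3.91 ± 0.69) fell. ccl34a.4 had 3 counts over the mutant libraries and 52 over the wild-type ones, a ratio of 18.1 (95% counting interval 5.87 to 90.7). Among other mediators, the inducible nitric oxide synthase gene nos2a (-2.94 ± 0.52) fell, as did the NADPH oxidase organizer noxo1a (-1.76 ± 0.23), the co-stimulatory receptor cd40 (-1.62 ± 0.32) and the cytokine-activated factor stat3 (-0.59 ± 0.10).

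Other mediators were nearer the threshold. il1b, the interleukin 1 beta gene, was at 1.70, 2.397 and 3.19 CPM in mutant libraries, against 7.32, 4.44 and 7.15 CPM in wild-type libraries (-1.32 ± 0.30, adjusted p = 0.0145, up to 0.0647), with no overlap. The chemokine gene cxcl8a was at -1.08 ± 0.35 (adjusted p = 0.0622), and the cyclooxygenase genes ptgs2a and ptgs2b at -0.04 ± 0.16 and -0.16 ± 0.26 (adjusted p = 0.904 and 0.736). The neutrophil growth factor gene csf3a was the 1 mediator called higher, at 4.34, 2.96 and 5.103 CPM in mutant libraries, against 2.13, 1.75 and 1.90 CPM in wild-type libraries (1.11 ± 0.30, adjusted p = 0.0305, up to 0.114). Counts of lower mediators ran from 11 to 19 with a library left out. il1b, csf3a and 4 genes of the next paragraphs (csf3r, cybb, ncf1 and stat1a) were picked after their values were seen.

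Genes of neutrophils and macrophages were mostly lower. Of 37 tested, 28 were lower (75.7%, against 7.84% of all genes) and none was higher, with a median of -1.08; 22 to 30 were lower with a library left out. The 6.17% and 7.84% of all genes stand as background for each list below. mpeg1.2, a pore-forming macrophage protein gene, was at 7.44, 9.30 and 9.57 CPM in mutant libraries, against 158, 114 and 94.7 CPM in wild-type libraries (log2 fold change -3.79 ± 0.20, adjusted p = 1.47e-06). Its neighbour in the family, mpeg1.1, a common macrophage marker, was at 7.13, 8.46 and 7.34 CPM in mutant libraries, against 28.5, 20.7 and 15.8 CPM in wild-type libraries (log2 fold change -1.50 ± 0.21, adjusted p = 0.0012). No library of either gene crossed between the groups. The summed level of the 37 genes was 2796 to 3339 CPM in mutants, against 3029.7 to 3862 CPM in wild type. Its part in the differences of inflammatory, interferon-induced and lysosomal genes was not tested.

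For neutrophils, the myeloperoxidase gene mpx was at 30.7, 27.2 and 28.7 CPM in mutant libraries, against 90.9, 62.0 and 66.9 CPM in wild-type libraries (log2 fold change -1.34 ± 0.15, adjusted p = 0.000253). The lysozyme gene lyz was at 36.3, 40.5 and 43.9 CPM in mutant libraries, against 98.2, 58.6 and 44.2 CPM in wild-type libraries (-0.73 ± 0.23, adjusted p = 0.0592) and missed the threshold, with the third library of each genotype nearly level. lcp1, the actin-bundling L-plastin of all leukocytes, was at 3.25, 6.49 and 7.66 CPM in mutant libraries, against 27.1, 26.7 and 27.3 CPM in wild-type libraries (log2 fold change -2.18 ± 0.22, adjusted p = 0.000124). The myeloid master regulators spi1b (-1.39 ± 0.17) and spi1a (-1.08 ± 0.15) fell. The scavenger receptor marco (-1.82 ± 0.26) fell, as did the leukocyte chemotaxin-like lect2l (-1.98 ± 0.14), the receptor csf3r (-1.61 ± 0.25), and the phagocyte oxidase genes cyba (-1.20 ± 0.16), cybb (-0.86 ± 0.13) and ncf1 (-1.79 ± 0.28). The granulin genes grn1 (-1.69 ± 0.21) and grn2 (-4.03 ± 0.51) fell; their sequences are alike, and reads may be shared between them. csf1rb and slc7a7 were at 0.14 ± 0.25 and -0.15 ± 0.15 (adjusted p = 0.761 and 0.527).

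Lysosomal proteases followed. Of 15 tested cathepsin genes, a family defined by symbol after the values were seen, 8 were lower and none higher (8 to 10 with a library left out). The macrophage cathepsin S genes ctss2.2 (-2.35 ± 0.22) and ctss2.1 (-2.44 ± 0.26) fell. The broadly expressed ctsba was at 132, 136 and 126 CPM in mutant libraries, against 254, 215 and 193 CPM in wild-type libraries (-0.75 ± 0.11, adjusted p = 0.00152). ctsd and ctsla were at -0.29 ± 0.09 and -0.15 ± 0.13 (adjusted p = 0.0503 and 0.514).

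Most tested interferon-induced genes were lower in mutants. Of 31 tested, 19 were lower and 1 higher, with a median of -1.34 (14 to 27 lower with a library left out). A further 23 had too few counts to be tested. A gene can pass the count filter through 1 group alone, so shares and medians of tested members depend on it. With no count filter, 26 were lower and 1 higher, out of at most 54 members with values. mxf, an Mx antiviral GTPase gene, had 3 counts over the mutant libraries and 776 over the wild-type ones, a ratio of 270 with a 95% counting interval of 92.2 to 1314. It was at 0, 0.282 and 0.106 CPM in mutants, against 49.4, 37.8 and 18.8 CPM in wild type. mxc, of the same family, was at 3.56, 4.37 and 4.25 CPM in mutants, against 45.1, 35.9 and 23.6 CPM in wild type (log2 fold change -3.09 ± 0.24, adjusted p = 2.94e-05). Mx genes are close in sequence, so reads may be shared among them. The factor irf1b, which acts downstream of interferon gamma, was at 8.37, 5.92 and 10.6 CPM in mutants, against 84.3, 55.8 and 45.5 CPM in wild type (log2 fold change -2.87 ± 0.25, adjusted p = 5.66e-05).

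Sensors and signalling genes were included in the fall. The RNA sensor dhx58 (-2.10 ± 0.25) fell, as did the guanylate-binding GTPase genes gbp1 (-2.85 ± 0.27) and gbp2 (-1.96 ± 0.25), the interferon-induced xaf1 (-2.63 ± 0.38) and the ubiquitin ligase gene trim25 (-0.98 ± 0.17). stat1b, a transducer of interferon signals, was at 2.94, 2.96 and 2.98 CPM in mutants, against 24.5, 22.1 and 7.74 CPM in wild type (log2 fold change -2.61 ± 0.38, adjusted p = 0.00152). Wild-type library 3 was the lowest wild-type library for stat1b, mxf, mxc and irf1b, yet stayed above every mutant. stat1a, the paralog of stat1b, was at 32.5, 40.7 and 40.3 CPM in mutants, against 69.2, 76.1 and 39.9 CPM in wild type, where the groups overlapped (-0.71 ± 0.20, adjusted p = 0.0414, up to 0.152). The suppressor socs1a was the 1 member called higher (1.08 ± 0.31, adjusted p = 0.0399, up to 0.133), with overlapping groups. irf3 and tlr3 were at -0.50 ± 0.26 and -0.76 ± 0.35 (adjusted p = 0.231 and 0.179).

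The tested genes of antigen presentation, most of which serve the display of peptides on MHC class I, were mostly lower. Of 14 tested, which include the class II invariant chain gene cd74b, 11 were lower and none higher, with a median of -1.70, the lowest of the 41 listed groups of genes (8 to 13 lower with a library other than wild type 3 left out, and 16 without that library, when more members passed the filter). A further 9 members had too few counts to be tested. With no count filter, 15 were lower and none higher, out of at most 23 members with values. The class I gene mhc1zba was at 66.6, 68.4 and 70.7 CPM in mutants, against 235, 243 and 146 CPM in wild type (log2 fold change -1.60 ± 0.17, adjusted p = 0.000199). The peptide transporter gene tap1 (-1.79 ± 0.25) fell, as did the loading chaperones tapbpl (-2.55 ± 0.28), tapbp.1 (-2.04 ± 0.30) and tapbp.2 (-3.35 ± 0.50), and the proteasome activator subunits psme1 (-1.82 ± 0.23) and psme2 (-2.12 ± 0.25). Reads of MHC class I and tapasin copies may be shared. b2m, the light chain of class I, was at 2.01, 3.102 and 2.87 CPM in mutants, against 20.4, 11.6 and 5.99 CPM in wild type (log2 fold change -2.22 ± 0.40, adjusted p = 0.00479). Of 39 subunits of the constitutive proteasome, 5 were lower, with a median of -0.20; none was lower without wild type 1, mutant 1 or mutant 2, and 28 were lower with library totals as the only scaling.

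**Figure D2:**
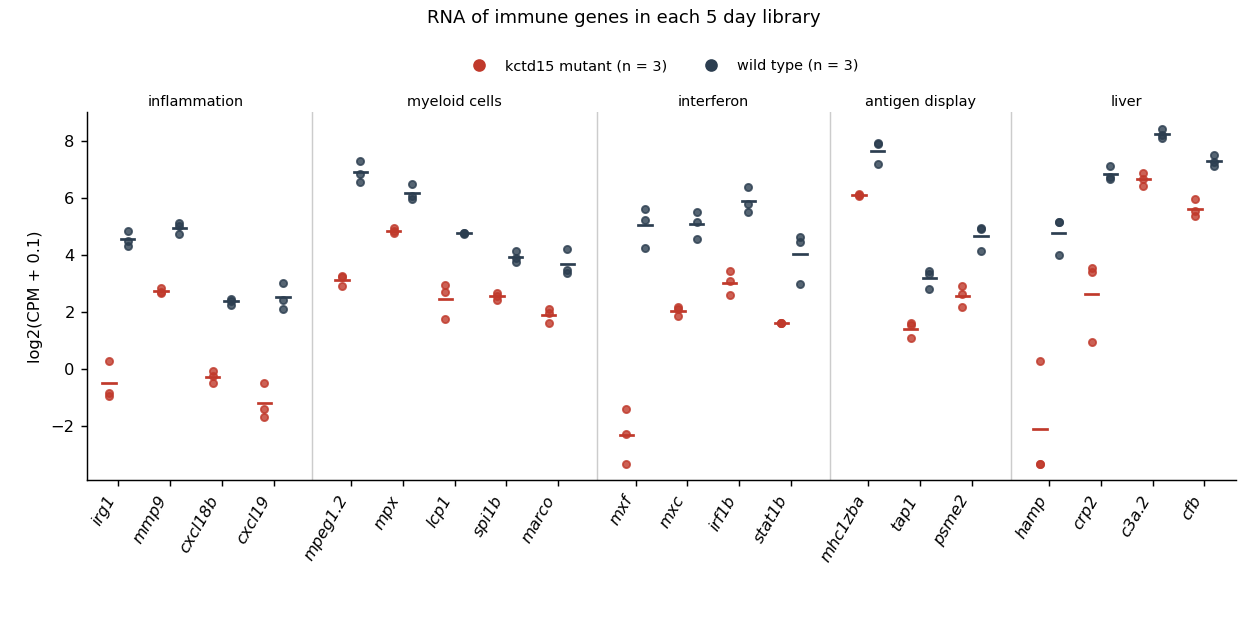
RNA of 20 immune genes on the y axis as log2 of CPM plus 0.1, in each of the 3 mutant (red, left of each pair) and 3 wild-type libraries (dark, right), grouped by role on the x axis; bars mark means of the plotted values. No gene shown has a mutant library above a wild-type one, and mxf and hamp have mutant libraries at 0 counts. All genes shown are called ones, and 17.5% of all genes tested have all mutants below all wild types.

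Hepcidin, encoded by hamp, is the liver hormone that blocks iron export and is induced by inflammation. It was at 0, 1.13 and 0 CPM in mutants, against 35.8, 16.0 and 35.6 CPM in wild type (log2 fold change -6.30 ± 0.61, adjusted p = 0.000107): mutants 1 and 3 had no count, and the log2 fold change ran from -10.77 to -5.57 with a library left out. The acute phase gene crp2, a C-reactive protein, was at 11.47, 10.6 and 1.81 CPM in mutants, against 141, 101 and 106 CPM in wild type (log2 fold change -3.94 ± 0.39, adjusted p = 0.000123). Of 26 tested complement genes, 10 were lower and 1 higher (9 to 13 lower with a library left out). The central component genes c3a.1 (-1.21 ± 0.13) and c3a.2 (-1.59 ± 0.13) fell, as did the factor B gene cfb (-1.66 ± 0.16), the membrane-attack component c9 (-1.04 ± 0.16) and the regulator-like gene cfhl1 (-1.88 ± 0.25). cfd, which encodes the protease factor D, was the 1 higher member, at 121, 135 and 201 CPM in mutants, against 105, 75.8 and 74.9 CPM in wild type (0.84 ± 0.19, adjusted p = 0.0145, up to 0.0519).

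Of 46 liver plasma protein genes, 5 were higher and 5 lower, against 0 higher and 15 lower with library totals as the only scaling. With a library left out the counts ran from 0 higher and 0 lower (without mutant 2) to 6 higher (without wild type 3) or 7 lower (without mutant 3). The apolipoprotein gene apoa1b was at 0.32 ± 0.09 (adjusted p = 0.0406, up to 0.137), the protease inhibitor serpina1 at 0.39 ± 0.09 (up to 0.0783) and the copper oxidase cp at -0.57 ± 0.14 (up to 0.0934). Among 22 iron genes 2 were higher and 2 lower. The ferritin heavy chain gene fth1a was at 818, 909 and 840.4 CPM in mutants, against 611, 677 and 642 CPM in wild type (0.41 ± 0.08, adjusted p = 0.00881, up to 0.0526).

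Several other genes stood among the 12 largest falls. plekhs1, which encodes a pleckstrin homology domain protein, was at 0.930, 0.705 and 1.06 CPM in mutant libraries, against 42.1, 29.6 and 28.3 CPM in wild-type libraries (log2 fold change -5.16 ± 0.26, adjusted p = 9.29e-07). ggact.2, a gamma-glutamylamine cyclotransferase gene, was at 0.620, 0.846 and 0.425 CPM in mutant libraries, against 17.8, 31.7 and 16.2 CPM in wild-type libraries (log2 fold change -5.14 ± 0.38, adjusted p = 1.99e-05). The groups were far apart in both genes, but the largest falls were picked among genes without overlap of the groups. The kelch-like gene kbtbd7 had 3 counts over the mutants and 93 over wild type, a ratio of 32.4 (10.7 to 160.0). The egg envelope gene zp3a.2 had 2 counts over the mutants and 61 over wild type, a ratio of 31.9 (8.45 to 269).

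Detoxification genes had more falls than rises. Of 48 tested genes of xenobiotic metabolism and the aryl hydrocarbon receptor, 11 were lower and 1 higher (7 to 12 lower with a library left out). cyp1a, the cytochrome P450 that marks activity of that receptor, was at 48.5, 46.2 and 49.5 CPM in mutant libraries, against 212, 215 and 137 CPM in wild-type libraries (log2 fold change -1.97 ± 0.16, adjusted p = 3.39e-05). A second target, cyp1c1, fell by 1.04 ± 0.14. The efflux pump genes abcg2a (-1.19 ± 0.12) and abcc2 (-0.73 ± 0.10) fell, as did the quinone reductase nqo1 (-0.87 ± 0.16). The xenobiotic nuclear receptor gene nr1i2 was at 10.7, 14.8 and 17.0 CPM in mutants, against 32.2, 29.5 and 18.98 CPM in wild type (log2 fold change -0.91 ± 0.21, adjusted p = 0.017, up to 0.0699). cyp7a1, the rate-limiting enzyme of bile acid synthesis, was at 37.8, 46.1 and 30.5 CPM in mutants, against 66.0, 48.0 and 58.2 CPM in wild type (-0.59 ± 0.16, adjusted p = 0.0324, up to 0.131). The receptor gene ahr1b was the 1 higher member (0.67 ± 0.15, adjusted p = 0.0145, up to 0.0667). Of 31 tested UDP-glucuronosyltransferases, which conjugate drugs and bilirubin and were taken as a family after the values were seen, 11 were lower and none higher (6 to 12 with a library left out). Among them were ugt1ab (-0.95 ± 0.14) and ugt2b3 (-0.94 ± 0.12); copies of this family share sequence.

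Of 46 genes of glutathione and redox metabolism, 15 were lower and 3 higher. This count rested on single libraries: 2 were lower without mutant 2, 3 without wild type 1, 5 without wild type 2 and 6 without mutant 1. The members that kept their call included the glutathione transferase gstt1b, at 24.6, 22.8 and 30.1 CPM in mutant libraries, against 68.3, 67.6 and 49.8 CPM in wild-type libraries (log2 fold change -1.25 ± 0.15, adjusted p = 0.000443), and glutathione reductase gsr (-0.77 ± 0.12). The metal-binding metallothionein mt2 was higher by 0.50 ± 0.10 (adjusted p = 0.00698), but not in the fit of all 36 libraries (0.109).

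In the intestine list, which covers enterocyte enzymes and transporters, 9 of 41 genes were lower and 3 higher (6 to 9 lower with a library left out). The list median was -0.04. Its summed level overlapped between the groups, at 10732 to 11556 CPM in mutants, against 10521 to 11835 CPM in wild type. Several brush border enzymes fell: the meprin proteases mep1a.2 (-1.03 ± 0.15) and mep1a.1 (-1.07 ± 0.19) and the aminopeptidase anpepb (-0.81 ± 0.14). The intestinal alkaline phosphatase alpi.2 (-1.47 ± 0.16), which also dephosphorylates bacterial lipopolysaccharide, fell too. alpi.2 was at 18.9, 16.6 and 12.23 CPM in mutant libraries, against 46.7, 40.0 and 44.4 CPM in wild-type libraries. The endocytic receptor gene cubn, expressed in kidney tubule and in gut cells that take up protein, was higher, at 48.5, 52.4 and 51.8 CPM in mutant libraries, against 20.9, 18.6 and 29.0 CPM in wild-type libraries (log2 fold change 1.16 ± 0.15, adjusted p = 0.00074). The lipoprotein gene apoa4b.2 was higher by 0.61 ± 0.11. Of 19 pancreatic enzyme genes, 4 were higher and none lower, led by the lipase cel.2 (0.58 ± 0.09), and 2 to 5 were higher with a library left out. The median of that list was 0.17, and it lay just below 0 with library totals as the only scaling.

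Ionocytes, the skin and kidney cells that move salts, protons and ammonia, gave 9 lower and 2 higher genes of 36 (6 to 10 lower with a library left out). The Rh ammonia channel genes rhcg2a (-2.13 ± 0.22), rhcga (-1.35 ± 0.23), rhcgb (-0.82 ± 0.11) and rhbg (-0.62 ± 0.12) fell. rhcg2a was at 14.7, 21.9 and 19.03 CPM in mutant libraries, against 83.8, 105 and 55.9 CPM in wild-type libraries. The sodium-chloride cotransporter slc12a10.2 fell by 1.02 ± 0.14. The epithelial calcium channel gene trpv6 and the carbonic anhydrase ca15a were the higher members, at 1.03 ± 0.14 and 1.25 ± 0.15. A tandem cluster of kcnj1a potassium channel genes, singled out after its values were seen, split: kcnj1a.3 (-2.93 ± 0.44), kcnj1a.4 (-2.29 ± 0.25), kcnj1a.5 (-2.43 ± 0.31) and kcnj1a.6 (-1.30 ± 0.20) fell, while kcnj1a.2 was at 23.6, 30.5 and 34.4 CPM in mutant libraries, against 7.32, 9.82 and 7.30 CPM in wild-type libraries (1.85 ± 0.18, adjusted p = 0.000115). All 5 passed whichever library was left out, but the copies are alike and the authors' counting could have split reads between them.

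Among stress pathways, the p53 list gave 6 lower and 3 higher genes of 28 (2 to 8 lower with a library left out). cdkn1a, the p21 cell cycle inhibitor, was at 8.83, 8.32 and 9.36 CPM in mutant libraries, against 38.4, 46.2 and 24.96 CPM in wild-type libraries (log2 fold change -2.05 ± 0.21, adjusted p = 0.000174), and the apoptosis protease casp8 fell by 1.202 ± 0.24. gadd45ab was higher by 1.102 ± 0.20. In the hypoxia list 6 of 31 were lower and 3 higher (5 or 6 lower with a library left out): the pyruvate dehydrogenase kinase pdk1 (-1.10 ± 0.16) fell, as did the Hif-2 alpha gene epas1a (-0.71 ± 0.14) and the mitochondrial gene higd1a (-0.93 ± 0.12), and the insulin-like growth factor binding protein igfbp1b (1.36 ± 0.27) was higher. fkbp5, a cochaperone of the glucocorticoid receptor and a target of it, was at 25.6, 16.8 and 43.9 CPM in mutant libraries, against 139, 251 and 101 CPM in wild-type libraries (log2 fold change -2.49 ± 0.36, adjusted p = 0.00132). Wild-type values of fkbp5 were uneven, but all lay above the mutants. The rest of the glucocorticoid list was mixed, with 6 higher and 5 lower of 25, among them gadd45ba, higher by 1.21 ± 0.13.

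Cholesterol synthesis gave 4 lower genes of 27 and none higher (median -0.31). hmgcra, the rate-limiting reductase of the pathway, was at 16.7, 13.5 and 9.89 CPM in mutant libraries, against 45.1, 27.4 and 37.8 CPM in wild-type libraries (log2 fold change -1.47 ± 0.22, adjusted p = 0.00149). insig1, which holds the sterol sensor in the endoplasmic reticulum, fell by 0.79 ± 0.14. With library totals as the only scaling, 10 were lower.

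Epidermal keratins were higher. Of 50 tested genes of epidermis, 14 were higher and 9 lower, and 13 or 14 were higher with any library left out. With library totals as the only scaling, 12 were higher and 17 lower. cyt1l, a type I cytokeratin gene, was at 1926, 1923 and 2600.1 CPM in mutant libraries, against 313, 431 and 525 CPM in wild-type libraries (log2 fold change 2.35 ± 0.18, adjusted p = 2.39e-05). Its neighbour in sequence, cyt1, was at 3986, 4115 and 5252 CPM in mutant libraries, against 926, 1457 and 1416 CPM in wild-type libraries (log2 fold change 1.81 ± 0.16, adjusted p = 7.21e-05); reads may be shared by these copies. krtt1c19e, a keratin of basal skin cells, was at 2633, 2776 and 3196 CPM in mutant libraries, against 798, 1026 and 961 CPM in wild-type libraries (log2 fold change 1.63 ± 0.11, adjusted p = 8.37e-06). In all 3 genes the lowest mutant was well above the highest wild-type library. The summed level of the 50 genes was 27471 to 34430.3 CPM in mutants, against 15737 to 17885 CPM in wild type.

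Other keratins rose by smaller steps: krt15 by 1.29 ± 0.11, krt94 by 0.96 ± 0.11, krt4 by 0.95 ± 0.10, krt91 by 0.93 ± 0.08, krt97 by 0.82 ± 0.09 and krt17 by 1.03 ± 0.19. The lower members with a gene symbol were not keratins. The antibacterial goose-type lysozyme gene lygl1 was at 3.41, 4.93 and 3.51 CPM in mutant libraries, against 39.8, 30.4 and 24.96 CPM in wild-type libraries (log2 fold change -3.00 ± 0.22, adjusted p = 1.56e-05), and the annexin gene anxa1b fell by 1.49 ± 0.16. The number of lower members ran from 3 (without mutant 1) to 15 (without wild type 3). vim, the gene of the mesenchymal filament protein vimentin and not a list member, was at 159, 189 and 165 CPM in mutant libraries, against 96.5, 93.3 and 87.4 CPM in wild-type libraries (0.89 ± 0.10, adjusted p = 0.000322).

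Fast muscle genes rose together. Of 45 tested, 27 were higher and 1 lower, with a median of 0.40, and 25 to 28 were higher with any library left out. The skeletal alpha actin genes acta1a and acta1b led. acta1a was at 552, 496 and 517 CPM in mutant libraries, against 138, 136 and 141 CPM in wild-type libraries (log2 fold change 1.91 ± 0.09, adjusted p = 6.80e-07), and acta1b at 1243, 1241 and 1104 CPM in mutant libraries, against 330.2, 369 and 399.8 CPM in wild-type libraries (log2 fold change 1.71 ± 0.10, adjusted p = 2.24e-06). Their sequences are alike, so the split of reads between them is uncertain.

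Among the motor and calcium genes, the fast myosin heavy chains myhz1.2 and myhz1.1 rose by 0.81 ± 0.07 and 0.65 ± 0.06, the giant filament gene neb by 0.90 ± 0.09, the calcium release channel ryr1b by 0.94 ± 0.11, the calcium pumps atp2a1l and atp2a1 by 0.89 ± 0.08 and 0.63 ± 0.06, and the creatine kinase ckmb by 0.50 ± 0.06. The 1 lower member was the troponin I gene tnni2b.1 (-0.40 ± 0.12), and no member was called lower when a library other than wild type 3 was left out. The summed level of the list was 133638 to 136373 CPM in mutants, against 94221 to 96617 CPM in wild type, with no overlap. Slow and cardiac muscle showed no such count: of 27 genes, 1 was higher (actc1a, the cardiac alpha actin, 0.80 ± 0.11) and 1 lower (tnnt2a, the cardiac troponin T, -0.68 ± 0.18, up to 0.11), with a median of 0.04. With library totals as the only scaling, 21 fast muscle genes were higher and 3 lower. Glycolysis, the fuel path of fast muscle, gave 7 higher and 4 lower of 38 (3 to 12 higher and 2 to 5 lower with a library left out). The muscle enolase eno3 (0.59 ± 0.08) was among the higher genes. The lower ones were slc16a3, slc2a1b, pgam1a and hk2, the last 2 with adjusted p of up to 0.0782 and 0.128. Library totals as the only scaling gave 3 higher and 6 lower, and the list median went from 0.14 to -0.03. The liver glucose sensor gck, the glucokinase, was at 4.03, 3.24 and 4.04 CPM in mutant libraries, against 0.915, 0.819 and 0.876 CPM in wild-type libraries (log2 fold change 2.104 ± 0.32, adjusted p = 0.00182).

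Of 41 collagen and matrix genes, 9 were higher and 2 lower (5 to 13 higher with a library left out). The type I collagen chains col1a1a, col1a1b and col1a2, made by fin, skin and bone fibroblasts, rose by 0.58 ± 0.07, 0.51 ± 0.09 and 0.49 ± 0.09, and the tendon matrix genes tnc and thbs4b by 0.78 ± 0.10 and 0.63 ± 0.10. The collagen cross-linking enzyme gene loxl2b fell by 1.13 ± 0.13. In the bone and cartilage list 3 of 36 were higher and 3 lower; none was higher without wild type 1, mutant 1 or mutant 2, 10 were without wild type 3, and library totals as the only scaling gave 1 higher and 7 lower. The lower ones were col10a1a and col10a1b, collagen X genes of bone-forming and hypertrophic cells, at -0.62 ± 0.09 and -2.18 ± 0.32, and the cartilage matrilin matn3a (-1.15 ± 0.23). With library totals as the only scaling, the medians of both lists turned negative (-0.02 and -0.16).

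Ribosomal protein genes were higher by a small step. Of 78 tested, a family taken by symbol after the values were seen, 62 were higher and none lower, with a median of 0.35, and 76 had all mutants above all wild types, as had 15.6% of all genes. rps2 was at 2843, 3001 and 2837 CPM in mutant libraries, against 2088, 1991 and 1980.0 CPM in wild-type libraries (log2 fold change 0.52 ± 0.07, adjusted p = 0.000899). This count depended on libraries and scaling: 23 were higher without mutant 2, 38 without either wild type 1 or wild type 2, 44 without mutant 3, 23 in the fit of all 36 libraries, and 14 with library totals as the only scaling. The summed level of the 78 genes was 85928 to 93387 CPM in mutants, against 69471 to 71209 CPM in wild type. The 8 subunits of the chaperonin CCT, which folds actin and tubulin, were also taken after their values were seen; each had all mutants above all wild types (15.6% of all genes did), and 5 passed (3 to 5 with a library left out), led by cct2 (0.92 ± 0.12) and cct4 (0.70 ± 0.09).

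Cell cycle and DNA replication genes leaned the same way, with 10 of 56 higher and none lower (median 0.32), but 1 remained without wild type 2 or mutant 3, 3 without wild type 1, 4 without mutant 1 or mutant 2, and 15 were higher without wild type 3. mcm7, of the replicative helicase, kept its call, at 79.3, 75.4 and 69.4 CPM in mutant libraries, against 46.8, 39.4 and 51.5 CPM in wild-type libraries (log2 fold change 0.70 ± 0.12, adjusted p = 0.00317). With library totals as the only scaling, 2 were higher and 1 lower.

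**Figure D3:**
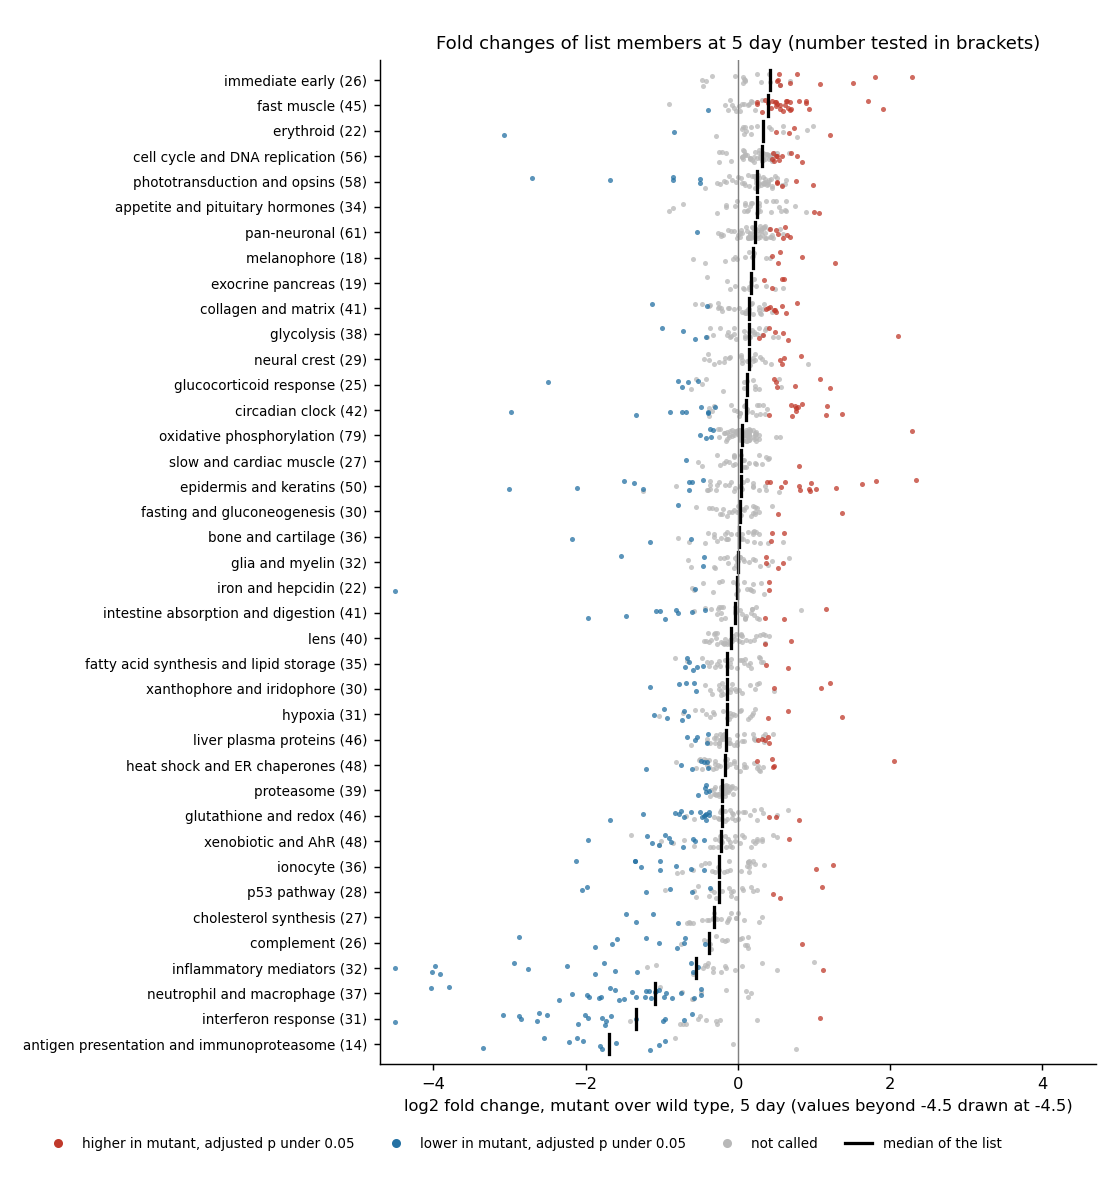
Log2 fold change of mutant over wild type (x axis) of each tested member of the lists with at least 10 tested genes, without the families taken by symbol (y axis, ordered by median). Each point is a gene, red if higher, blue if lower and grey if not called, and black bars are list medians; the 4 lowest medians shown are those of antigen presentation, interferon response, neutrophil and macrophage, and inflammatory mediator genes, and immediate early and fast muscle genes have the highest.

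Immediate early genes, which cells switch on within minutes of activity or stimulation, were higher in mutants: 10 of 26 were called higher and none lower (median 0.42; 7 to 11 higher with a library left out). npas4a, an activity-dependent factor of neurons, was at 59.7, 57.1 and 51.4 CPM in mutant libraries, against 7.93, 11.3 and 15.04 CPM in wild-type libraries (log2 fold change 2.29 ± 0.18, adjusted p = 2.94e-05). fosab, a subunit of AP-1, was at 30.2, 24.1 and 22.97 CPM in mutant libraries, against 6.86, 7.25 and 8.03 CPM in wild-type libraries (log2 fold change 1.796 ± 0.16, adjusted p = 5.76e-05), and egr1 at 73.4, 77.1 and 57.0 CPM in mutant libraries, against 30.3, 27.4 and 40.1 CPM in wild-type libraries (log2 fold change 1.08 ± 0.16, adjusted p = 0.00151). All 3 separated the groups fully. The list also counted junbb (0.78 ± 0.14) and btg2 (0.55 ± 0.11). In the fit of all 36 libraries, fosab, egr1, junbb and btg2 did not pass (adjusted p = 0.0859, 0.0948, 0.266 and 0.508), while npas4a did. In that fit, 2 of the list were higher and none lower. With library totals as the only scaling, 7 were higher and 2 lower.

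Clock genes moved in both directions: 11 of 42 were higher and 9 lower (6 to 13 and 3 to 7 with a library left out). The rhythmic repressor per1b was at 141, 136 and 126 CPM in mutant libraries, against 44.1, 50.2 and 62.2 CPM in wild-type libraries (log2 fold change 1.37 ± 0.13, adjusted p = 8.83e-05). cry1ab was at 37.96, 34.96 and 30.9 CPM in mutant libraries, against 15.7, 17.3 and 12.99 CPM in wild-type libraries (log2 fold change 1.16 ± 0.14, adjusted p = 0.000464), and per3 rose by 0.79 ± 0.11. The REV-ERB-type repressor nr1d4b was at 1.70, 2.54 and 0.851 CPM in mutant libraries, against 13.9, 13.7 and 11.2 CPM in wild-type libraries (log2 fold change -2.97 ± 0.29, adjusted p = 0.000112). The groups did not overlap in any of these. dbpb (-0.89 ± 0.15), an activator of the D-box arm of the clock, fell, and the repressor nfil3-5 (0.76 ± 0.12) of the same arm rose. bhlhe40 (0.70 ± 0.12) rose and its paralog bhlhe41 (-0.68 ± 0.12) fell. Without the hour of collection, its part in these values was not tested.

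Neural crest genes, the lineage that KCTD15 is known to limit, gave 4 higher of 29 and none lower, with a median of 0.14. With a library left out, 1 to 4 were higher, and 1 was lower without mutant 3. Library totals as the only scaling gave 2 higher and 3 lower, and the median turned to -0.03. pax7b, of crest and xanthophore precursors, was at 16.3, 15.6 and 14.03 CPM in mutant libraries, against 7.17, 9.47 and 8.90 CPM in wild-type libraries (log2 fold change 0.83 ± 0.16, adjusted p = 0.00581). foxd3 and the neural plate border genes zic1 and zic2a were higher at adjusted p = 0.0263, 0.012 and 0.0257, but with a library left out their p reached 0.104, 0.0534 and 0.106. The crest regulator sox10 was at 0.22 ± 0.15 and crestin, an early crest marker of zebrafish, at -0.39 ± 0.17 (adjusted p = 0.342 and 0.149).

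Pigment cells descend from the crest. Of 18 melanophore genes, 5 were higher and none lower (3 to 5 with a library left out). The melanin enzymes tyrp1a and tyr were at 25.7, 40.2 and 20.2 CPM in mutants, against 10.5, 13.7 and 10.8 CPM in wild type (log2 fold change 1.28 ± 0.24, adjusted p = 0.00521) and at 19.7, 21.7 and 18.1 CPM in mutants, against 11.13, 11.9 and 9.78 CPM in wild type (log2 fold change 0.85 ± 0.14, adjusted p = 0.00322). The melanosome gene pmela rose by 0.56 ± 0.10. In the xanthophore and iridophore list, 3 of 30 were higher and 5 lower: the pteridine synthesis genes gch2 (1.09 ± 0.17) and pts (1.21 ± 0.22) were higher, while the iridophore purine gene pnp4a was at 8.52, 7.90 and 12.01 CPM in mutants, against 23.8, 22.9 and 17.5 CPM in wild type (log2 fold change -1.16 ± 0.19, adjusted p = 0.00254) and the carotenoid-cleaving bco1 (-0.77 ± 0.12) fell. gpnmb, found in pigment cells and macrophages, fell by 0.68 ± 0.12. Also lower were slc2a11b and csf1ra (adjusted p = 0.0182 and 0.0379, up to 0.0762 and 0.152), and mycbp2 was higher (0.0155, up to 0.0655). With a library left out, 2 to 4 of this list were higher and 3 to 5 lower. Library totals as the only scaling gave 2 higher and 8 lower.

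**Figure D4:**
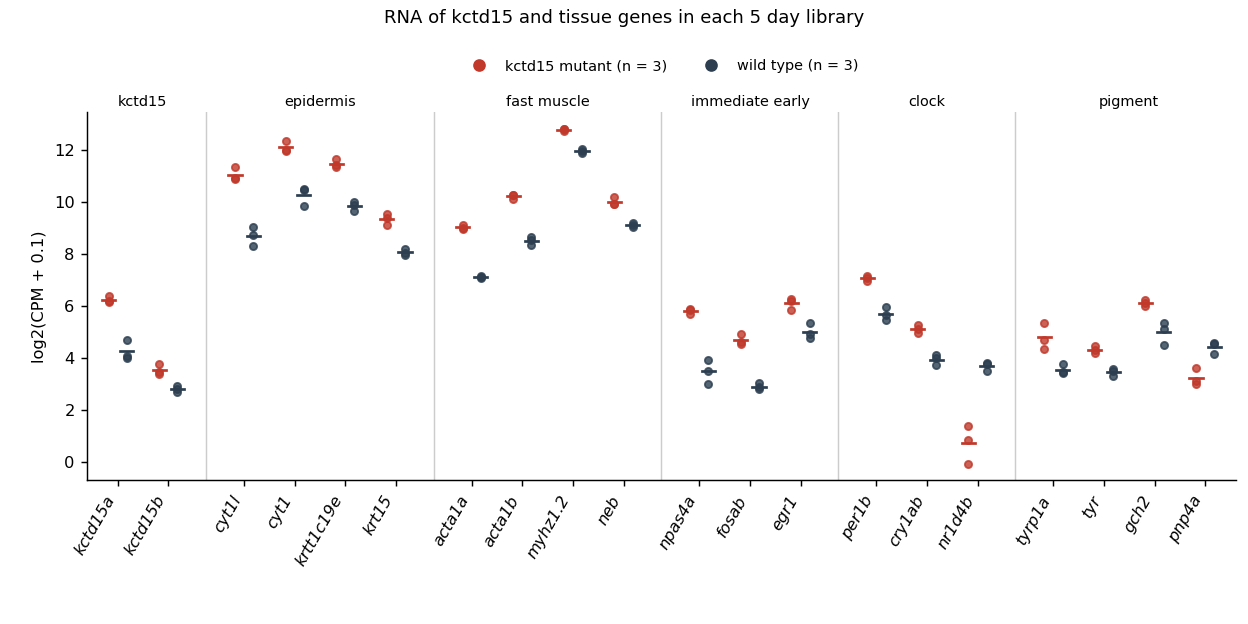
RNA of kctd15 paralogs and 18 tissue genes on the y axis as log2 of CPM plus 0.1, in each of the 3 mutant (red, left of each pair) and 3 wild-type libraries (dark, right), grouped by tissue or process on the x axis; bars mark means of the plotted values. Except for nr1d4b and pnp4a, every gene shown has all mutant libraries above all wild-type ones. All genes shown are called ones, and 15.6% of all genes tested have all mutants above all wild types.

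Of 22 erythroid genes 4 were higher and 2 lower; with a library left out 2 to 8 were higher and 1 or 2 lower, and with library totals as the only scaling 2 were higher and 3 lower. alas2, the erythroid heme synthesis enzyme, was at 59.5, 66.4 and 63.4 CPM in mutant libraries, against 34.6, 18.5 and 29.2 CPM in wild-type libraries (log2 fold change 1.21 ± 0.18, adjusted p = 0.0017), and the globin hbae3 was higher by 0.67 ± 0.15 (adjusted p = 0.0142; 0.18 in the fit of all 36 libraries). hbbe1.1 was at 21.7, 21.1 and 30.1 CPM in mutant libraries, against 18.6, 107 and 491 CPM in wild-type libraries, where wild type 3 alone held most of the counts (adjusted p = 0.0295, up to 0.125). In a set of 12 thymus and T cell genes named after their values were seen, rag1, the recombinase of developing lymphocytes, was at 14.3, 19.7 and 17.3 CPM in mutant libraries, against 5.95, 3.86 and 8.76 CPM in wild-type libraries (log2 fold change 1.49 ± 0.25, adjusted p = 0.00293). Its partner rag2 was at 0.05 ± 0.25 (adjusted p = 0.911), and the pan-leukocyte coro1a (-0.94 ± 0.19) fell.

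In the nervous system, 7 of 61 pan-neuronal genes were higher and 1 lower (3 to 8 higher with a library left out, and 29 without wild type 3). Library totals as the only scaling gave 3 higher and 3 lower, and the list median went from 0.23 to 0.05. elavl3, an RNA-binding protein of postmitotic neurons, was at 334, 309.7 and 283 CPM in mutant libraries, against 216, 226 and 212 CPM in wild-type libraries (log2 fold change 0.50 ± 0.09, adjusted p = 0.00534; 0.073 in the fit of all 36 libraries), and the glycine receptor glra1 rose by 0.62 ± 0.12. Clustered protocadherins, cell adhesion genes that give neurons their identity and were grouped after their values were seen, gave 12 higher and 1 lower of 48 (3 to 21 higher with a library left out). pcdh2g1 had the largest rise of the named genes. It was at 6.82, 10.7 and 11.6 CPM in mutant libraries, against 1.52, 0 and 0 CPM in wild-type libraries (log2 fold change 4.36 ± 0.64, adjusted p = 0.0015), but DESeq2 did not call it (0.131), and its log2 fold change ran from 3.68 to 9.24 with a library left out. pcdh2ac was at 51.1, 48.5 and 39.6 CPM in mutant libraries, against 22.1, 22.5 and 28.8 CPM in wild-type libraries (log2 fold change 0.92 ± 0.14, adjusted p = 0.00195). Variable exons of this cluster share a constant part, so the split of reads among its members is uncertain.

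Among the other largest rises, the bile-acid-responsive hormone gene fgf19 was at 4.03, 8.46 and 12.33 CPM in mutant libraries, against 0.457, 0.936 and 0.438 CPM in wild-type libraries (log2 fold change 3.70 ± 0.49, adjusted p = 0.000761). The C-type lectin gene clec19a was at 5.89, 5.498 and 9.89 CPM in mutant libraries, against 1.68, 1.05 and 0.730 CPM in wild-type libraries (log2 fold change 2.64 ± 0.36, adjusted p = 0.000935). The groups were well apart in both, but the largest rises were picked among genes without overlap of the groups. The Nogo-receptor-like gene rtn4rl2a rose by 2.06 ± 0.26, the heat shock gene hsp70l by 2.05 ± 0.38, the fatty acid binding protein gene fabp11b by 3.87 ± 0.75 at low levels (means of 2.91 CPM in mutants and 0.195 CPM in wild type), and arpp19b, a phosphatase inhibitor gene, by 4.13 ± 0.70 (DESeq2 adjusted p = 0.105). With a library left out, the log2 fold changes ran from 3.21 to 7.47 for fabp11b and from 3.46 to 8.51 for arpp19b. sdhda, a subunit of succinate dehydrogenase, was at 1.86, 1.69 and 3.72 CPM in mutant libraries, against 0.305, 0.585 and 0.584 CPM in wild-type libraries (2.29 ± 0.49, adjusted p = 0.0119, up to 0.0577). The other 78 tested genes of oxidative phosphorylation included none called higher and 5 called lower. The lower genes made up 6.33% of the list of 79, against 7.84% of all genes. With a library left out, 1 to 4 of the list were lower, and 7 were higher without wild type 3.

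The 5 day difference was set beside those at 2 and 9 day in a fit of the 18 libraries of these stages (23180 genes tested, CPM scaled over the 18 libraries). The mutant effect at 5 day differed from that at 2 day for 1799 genes (7.76%), 789 with a higher (3.4%) and 1010 with a lower value at 5 day (4.36%). From the effect at 9 day it differed for 566 genes (2.44%), 186 higher (0.802%) and 380 lower (1.64%). Both differences use the same 5 day libraries. Differences of single genes were followed with a library left out only where flagged for a closer look below. The passing differences given for mpx, hamp and npas4a were not followed, nor were those from 2 day for cyt1, acta1a and mpeg1.2. With a library left out, the 5 day minus 2 day count ran from 778 (without wild type 2) to 3078 (without wild type 3), and the 5 day minus 9 day count from 372 (without mutant 2) to 788 (without wild type 3).

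kctd15a was not among these genes. Its mutant effect at 5 day differed from that at 2 day by 0.19 ± 0.22 (adjusted p = 0.616) and from that at 9 day by 0.05 ± 0.23 (adjusted p = 0.953). Its mean levels were 163, 74.4 and 62.6 CPM in mutants at 2, 5 and 9 day, against 46.8, 18.7 and 16.3 CPM in wild type.

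Of the 32 inflammatory mediators, 7 had a lower mutant effect at 5 day than at 2 day and 9 a lower one than at 9 day, with none higher in either. Mean irg1 was 1.02, 0.661 and 1.83 CPM in mutants at 2, 5 and 9 day, against 0.775, 22.8 and 1.79 CPM in wild type. Its 5 day effect differed from that at 2 day by -5.48 ± 0.60 and from that at 9 day by -5.11 ± 0.48 on the log2 scale (adjusted p = 2.27e-05 and 5.63e-06). mmp9 averaged 9.85, 6.45 and 9.41 CPM in mutants at 2, 5 and 9 day, against 6.20, 30.0 and 8.31 CPM in wild type (differences -2.88 ± 0.29 and -2.39 ± 0.28). In both genes the wild-type 5 day libraries were the group that stood apart, while mutants at 5 day lay near either genotype at 2 and 9 day. Wild type at 5 day was also the highest group for mxc, with 7.06, 3.996 and 9.604 CPM in mutants at 2, 5 and 9 day, against 4.30, 33.5 and 6.92 CPM in wild type, and in mpeg1.2, with 1.55, 8.63 and 15.4 CPM in mutants at 2, 5 and 9 day, against 2.73, 117 and 25.1 CPM in wild type. Their differences were -3.76 ± 0.36 and -2.98 ± 0.51 from 2 day (adjusted p = 6.33e-06 and 0.00202) and -3.51 ± 0.34 and -3.04 ± 0.31 from 9 day (adjusted p = 5.63e-06 and 1.04e-05).

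mpx, the neutrophil marker, averaged 36.9, 28.4 and 26.9 CPM in mutants at 2, 5 and 9 day, against 37.2, 70.33 and 27.6 CPM in wild type (differences -1.30 ± 0.25 and -1.26 ± 0.25, adjusted p = 0.00507 and 0.00844). crp2 and hamp showed other courses. Mean crp2 was 0.485, 7.85 and 22.6 CPM in mutants at 2, 5 and 9 day, against 0.228, 112 and 101 CPM in wild type, and neither difference passed (-4.86 ± 2.07 and -1.72 ± 0.58, adjusted p = 0.142 and 0.142). Mean hamp was 2.75, 0.368 and 7.17 CPM in mutants at 2, 5 and 9 day, against 12.6, 28.1 and 9.70 CPM in wild type, and its 5 day effect passed against 9 day (-5.81 ± 1.3002, adjusted p = 0.0189) but not against 2 day (-4.11 ± 1.48, adjusted p = 0.0893). Over the lists, 15 of the 37 neutrophil and macrophage genes had a lower mutant effect at 5 day than at 2 day and 11 a lower one than at 9 day (against 4.36% and 1.64% of all genes), with none higher in either.

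Of the genes that were higher at 5 day, cyt1 averaged 4747, 4379 and 932 CPM in mutants at 2, 5 and 9 day, against 2469, 1217 and 842 CPM in wild type, so that its mutant effect at 5 day exceeded that at 9 day by 1.70 ± 0.25 (adjusted p = 0.000695) and that at 2 day by 0.90 ± 0.25 (adjusted p = 0.0342). krtt1c19e averaged 1537, 2823 and 1668 CPM in mutants at 2, 5 and 9 day, against 1093, 892 and 1805 CPM in wild type (difference from 9 day 1.78 ± 0.18, adjusted p = 9.27e-06). acta1a averaged 498, 514 and 358 CPM in mutants at 2, 5 and 9 day, against 394, 133 and 354 CPM in wild type, and acta1b 2939.9, 1178 and 5373 CPM in mutants at 2, 5 and 9 day, against 3236, 352 and 4398 CPM in wild type. For both actins, wild type was lower at 5 day than at 2 or 9 day, and the 5 day effect exceeded that at either stage (1.61 ± 0.24 and 1.88 ± 0.18 from 2 day, 1.93 ± 0.24 and 1.45 ± 0.18 from 9 day). The clock gene per1b averaged 73.1, 132 and 168 CPM in mutants at 2, 5 and 9 day, against 67.5, 50.1 and 164 CPM in wild type, with differences of 1.28 ± 0.19 and 1.36 ± 0.18. npas4a averaged 3.02, 55.2 and 13.7 CPM in mutants at 2, 5 and 9 day, against 0.403, 10.998 and 13.5 CPM in wild type; its 5 day effect exceeded that at 9 day by 2.28 ± 0.38 (adjusted p = 0.00181) and not that at 2 day (-0.53 ± 0.73, adjusted p = 0.686).

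**Figure D5:**
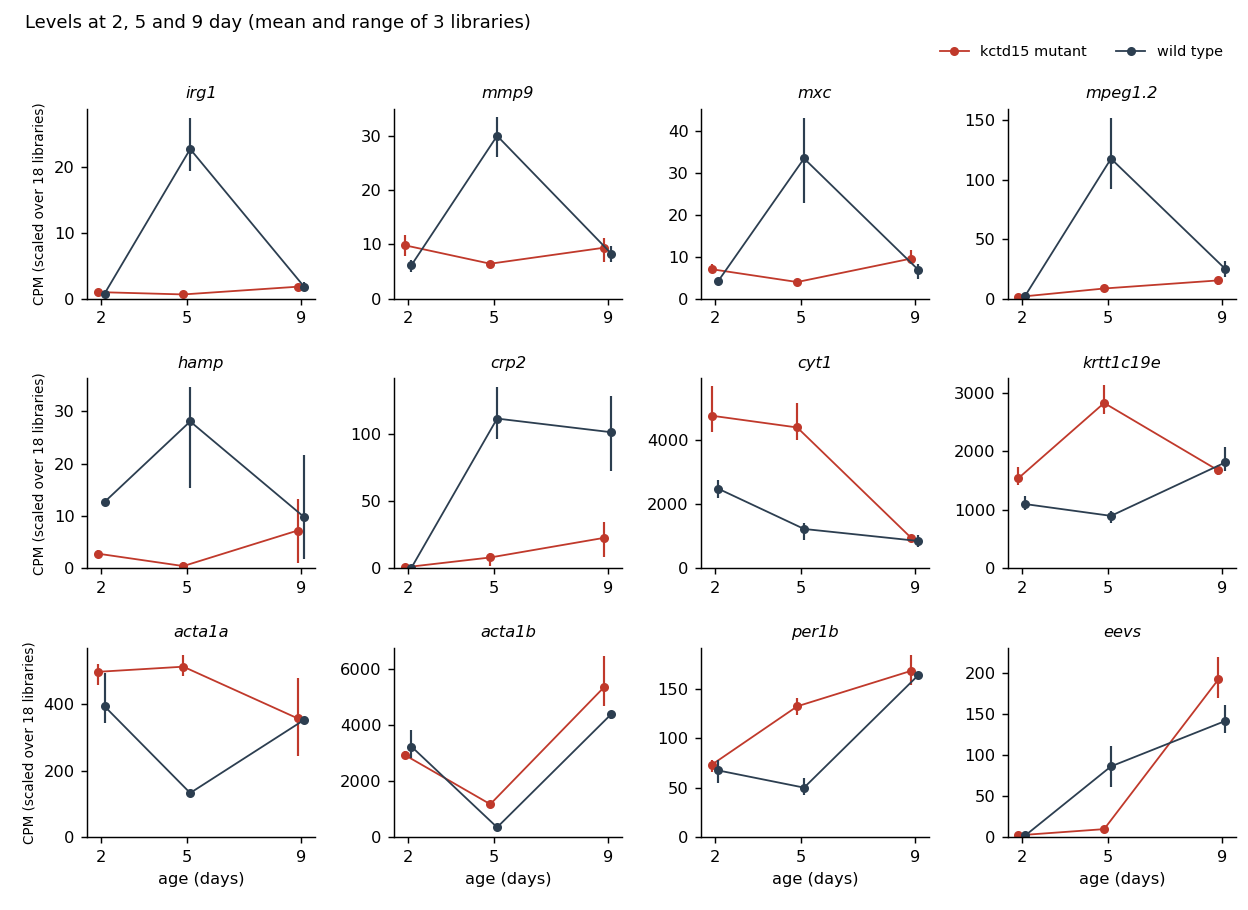
Mean CPM (y axis, scaled over 18 libraries) of 12 genes at 2, 5 and 9 days of age (x axis) in mutants (red) and wild type (dark); vertical lines span the lowest to the highest of 3 libraries. For irg1, mmp9, mxc and mpeg1.2 the wild-type level is highest at 5 day and the mutant level is not, and for acta1a and acta1b the wild-type level is lowest at 5 day.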

How the data were processed

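RNA-seq of 36 whole-embryo or whole-larva libraries (12 groups of 3) gave a deposited table of estimated counts per gene and one per transcript; the authors used Trimmomatic 0.36, kallisto 0.43.0, edgeR and build GRCz10, per the submitters' processing notes, which give no roles, and 84.1% of the gene values are not whole. The sources used here do not say how gene values were made from transcripts. Estimated counts were rounded. Genes were filtered with filterByExpr, scaled by TMM and tested with edgeR 4.0.16 (quasi-likelihood, R 4.3.3) on the 6 libraries at 5 day, with Benjamini-Hochberg adjustment over 21510 genes and a threshold of 0.05. Stage differences came from the same test on 18 libraries. The steps were tested on simulated counts. Alternatives were RLE factors, library totals alone, no filter, at least 1 CPM in 3 libraries, DESeq2 1.42.0, a fit of all 36 libraries, each library left out and a replicate block.

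The 41 gene lists (1573 of 1671 entries matched, 1388 tested), the members and the tests were chosen with earlier results of these data known, and 8 families and 6 single genes after the values were seen. Genes were named by rule: kctd15 and AP-2 genes, the 12 largest non-overlapping falls and rises with a mean of at least 1 CPM, called list members with the smallest p (6 a list, or 12 where at least 8 were called), and 8 genes per direction of each stage difference. Totals of 6165297 to 9997469 estimated counts per library at 5 day leave genes under 1 CPM with few counts, and the counting intervals given cover counting error only. A ratio from 3 or fewer counts is given with its interval. Whether replicates are separate clutches is not stated, so p-values measure the spread between these libraries.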

Additional observations from a re-analysis of the deposited data

Results flagged for a closer look

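The genes below were called at 5 day and had a mutant effect that also differed between 5 day and 2 day, or between 5 day and 9 day, by a test of that difference itself in the 18 libraries (edgeR quasi-likelihood, Benjamini-Hochberg adjustment over 23180 genes). Values are the log2 fold change of mutant over wild type at 5 day minus that at the other stage. Both differences rest on the same 5 day libraries. The differences listed were picked for the smallest p in each direction. None of them lost its call under the 11 alternatives run (352 values). Because of that choice, this says little about the other differences called. Under the same alternatives, the number of all genes called ran from 677 to 3078 against 2 day (1799 in the main fit). Against 9 day it ran from 283 to 823 (566 in the main fit).

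Against 2 day, the 5 day effect was higher for the actin gene acta1b by 1.88 ± 0.18 (SE), the keratin krt15 by 1.48 ± 0.16, the intermediate filament gene vim by 1.40 ± 0.17, the clock gene per1b by 1.28 ± 0.19 and the developmental factor sox4b by 1.21 ± 0.18. It was higher by 2.43 ± 0.27 for tmx3, a thioredoxin-related membrane protein gene, by 2.45 ± 0.34 for plac8.1 and by 5.00 ± 0.74 for the fatty acid binding protein gene fabp11b. It was lower for irg1 (-5.48 ± 0.60) and its paralog irg1l (-3.86 ± 0.31), for the antiviral gene mxc (-3.76 ± 0.36) and for mmp9 (-2.88 ± 0.29). The D-amino acid oxidase gene dao.1 (-4.18 ± 0.39), the ponzr family genes ponzr3 (-6.19 ± 0.62) and ponzr4 (-6.75 ± 0.68), and the heme-binding family gene soul5 (-2.17 ± 0.23) were lower too.

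Against 9 day, the 5 day effect was higher for the actins acta1a (1.93 ± 0.24) and acta1b (1.45 ± 0.18), the keratin genes krtt1c19e (1.78 ± 0.18) and cyt1 (1.70 ± 0.25), per1b (1.36 ± 0.18) and the sulfotransferase gene sult6b1 (1.22 ± 0.15). It was higher by 1.35 ± 0.19 for mych, a Myc family gene, and by 2.49 ± 0.35 for klf2a, a factor of blood vessels. klf2a's own 5 day call had an adjusted p of up to 0.0658 with a library left out. The 5 day effect was lower for irg1 (-5.11 ± 0.48), irg1l (-3.08 ± 0.35), mxc (-3.51 ± 0.34), mpeg1.2 (-3.04 ± 0.31) and mmp9 (-2.39 ± 0.28). It was lower for eevs, an enzyme of gadusol synthesis (-3.58 ± 0.31), for soul5 (-1.73 ± 0.19) and for the lactate transporter slc16a3 (-1.61 ± 0.18). Mean eevs was 2.304, 9.82 and 192 CPM in mutants at 2, 5 and 9 day, against 2.18, 86.1 and 141 CPM in wild type.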

How the results depend on the processing

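With RLE factors, no count filter, a minimum of 1 CPM in 3 libraries, DESeq2 (1126 higher and 1408 lower) and the fit of all 36 libraries, the counts of genes higher and lower at 5 day stayed within 1.5 times. Library totals as the only scaling gave 569 higher and 3586 lower, with the median of all genes at -0.17, and turned tfap2a to -0.052 (adjusted p = 0.807). With 1 library left out, genes higher ran from 496 to 2316 and genes lower from 885 to 2407, list members called from 230 to 504 (381 with all 6 libraries), 5 day minus 2 day differences from 778 to 3078 and 5 day minus 9 day differences from 372 to 788. The highest counts at 5 day were without wild type 3. A replicate block gave 632 higher and 1077 lower, and 677 and 283 stage differences. The deviations of same-numbered libraries correlated at -0.12, -0.05 and -0.27, and those of differently numbered ones at -0.20 to 0.26. With 3 libraries per group, these values cannot decide whether the numbers pair the samples. Of 382 named genes called at 5 day, 231 kept their call with any library left out and 218 in every alternative run. The cause of these changes was not tested. Genes under about 1 CPM have few counts, and a difference there was not detectable at this depth unless large.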

Other observations

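In the retina list, 5 of 58 genes of phototransduction were higher and 6 lower (2 higher without mutant 1, mutant 2, wild type 1 or wild type 2, 13 without mutant 3, 20 without wild type 3, and 2 with library totals as the only scaling). guca1a, an activator of photoreceptor guanylate cyclase, was at 1.39, 0.705 and 0.851 CPM in mutants, against 7.17, 6.78 and 5.11 CPM in wild type (log2 fold change -2.70 ± 0.32, adjusted p = 0.000373), and rpe65a, the retinoid isomerase of pigment epithelium, was at 21.7, 20.9 and 10.1004 CPM in mutants, against 53.8, 61.0 and 50.2 CPM in wild type (log2 fold change -1.68 ± 0.23, adjusted p = 0.000868). Both genes had all mutants below all wild types. The phosphodiesterase subunit gene pde6g and the arrestin gene sagb were higher by 0.98 ± 0.20 and 0.77 ± 0.13, and the guanylate kinase gene guk1b fell by 0.85 ± 0.16. Of 40 lens genes, 2 were higher.

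Chaperone genes split, with 5 of 48 higher and 7 lower (2 to 5 and 3 to 11 with a library left out). Library totals as the only scaling gave 2 higher and 17 lower. Inducible hsp70l was at 11.2, 5.08 and 5.32 CPM in mutants, against 1.83, 1.17 and 2.19 CPM in wild type (log2 fold change 2.05 ± 0.38, adjusted p = 0.00554), while hsp70.2 fell by 1.21 ± 0.21; copies of this family share sequence. The cytosolic chaperone hsp90ab1 was higher by 0.45 ± 0.07, and the endoplasmic reticulum isomerase gene pdia4 fell by 0.60 ± 0.12.

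In the fasting list 2 of 30 were higher and 1 lower: pck1, of gluconeogenesis, fell by 0.79 ± 0.13 (adjusted p = 0.00316; 0.0574 in the fit of all 36 libraries). Of 35 genes of fatty acid synthesis and storage 6 were lower and 2 higher, and 0 to 7 were lower with a library left out. The succinate dehydrogenase gene sdhb fell by 0.50 ± 0.09. Of 34 appetite and pituitary hormone genes 2 were higher, the somatostatin gene sst1.1 (1.001 ± 0.23, up to 0.0735) and the somatolactin gene smtlb (1.07 ± 0.31, up to 0.132). Glial genes gave 4 higher and 3 lower of 32, and 0 of 7 germ cell genes passed with edgeR, 0 at an unadjusted p under 0.05 and 0 with DESeq2.

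Of 7 ponzr genes, a family singled out after its values were seen, 4 were lower. ponzr4 was at 0.310, 0.705 and 0.532 CPM in mutants, against 2.90, 5.03 and 4.09 CPM in wild type (log2 fold change -2.91 ± 0.40, adjusted p = 0.00105) and ponzr3 at 1.70, 2.11 and 2.02 CPM in mutants, against 8.84, 14.2 and 8.76 CPM in wild type (log2 fold change -2.44 ± 0.27, adjusted p = 0.000264). The 382 called genes that the naming rule reached are a part of 3014, of which 935 carry only clone or locus names and are not described.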
